A study of Mus musculus with 6 samples.

Results

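The genes described here are 53 genes of the Wnt pathway among the 12830 genes of a count table from mouse bone marrow stromal cells. They comprise 27 genes whose symbols place them among the Wnt ligands, Frizzled receptors, secreted Frizzled-related proteins (Sfrp), Dickkopf proteins (Dkk), Kremen, Ror, R-spondin (Rspo) and Lgr families, and 26 further genes taken by name. Genes were taken by symbol and not by a measured value, but the list was chosen with earlier results of these data known. Another 22 names of the same role classes, among them Lef1, Dkk1, Rspo1 and 13 Wnt ligands, were not analysed here.

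Primary bone marrow stromal cells (BMSCs), adherent marrow cells that can give rise to bone-forming osteoblasts and to adipocytes, had been under osteogenic induction for 2 days before RNA was taken. The 3 CKO libraries came from mice written as Prx1;Rras2f/f, in which Rras2, which encodes a Ras-related GTPase, is deleted conditionally. The 3 Rras2FF libraries came from Rras2f/f mice, which carry the floxed gene alone. All mice were 8 weeks old, and the floxed alleles and the induction were common to both groups. The Prx1 promoter is active in limb bud mesenchyme and the skeletal cells derived from it, and not in the blood lineages that also occur in marrow cultures. Whether the libraries within a group derive from different animals or cultures is not stated in the labels. All p-values therefore reflect the spread among these samples alone, and that spread may be technical.

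Wnt proteins are secreted lipid-modified ligands. They bind Frizzled receptors, and with the co-receptors Lrp5 or Lrp6 this stops the breakdown of β-catenin, which then enters the nucleus and works with TCF/LEF factors on target genes, several of which are feedback inhibitors of the pathway. Other Wnt proteins act through Ror, Ryk or Ptk7 and do not need β-catenin. In bone the β-catenin branch is known for driving osteoblast formation, and secreted inhibitors of it are made by the osteoblast lineage itself.

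Between 31934714 and 37561452 counts over the listed genes stood behind each library, and each pair of libraries differed by more than sampling noise. Rras2 had 26.7, 28.98 and 26.8 counts scaled to a common library size (CPM) in CKO and 49.7, 50.1 and 44.7 CPM in Rras2FF, a log2 fold change of -0.81 ± 0.0683 (SE; quasi-likelihood test of edgeR with Benjamini-Hochberg adjustment, adjusted p = 1.08e-05). In both groups markers of macrophages were abundant: the 8 listed summed to between 22421 and 23081 CPM in CKO and between 20529 and 21883 CPM in Rras2FF. Lyz2 made up most of that sum, averaging 17134.5 CPM in CKO and 15801 CPM in Rras2FF. Cd68, Ptprc, Csf1r and Adgre1 were not called, with log2 fold changes of 0.12, 0.04, 0.02 and 0.01. The 10 stromal markers summed to between 14776 and 16516 CPM in CKO and between 18609.5 and 19562 CPM in Rras2FF. Col1a1, Col1a2 and Cxcl12 made up most of that sum, averaging 5427, 4949 and 4838 CPM in CKO and 8159, 6717 and 3483 CPM in Rras2FF. Of the 10 markers, Col1a1 and Col1a2, the genes of type I collagen, fell and Cxcl12 and Lepr rose. Their log2 fold changes were -0.59, -0.44, 0.47 and 0.47 (edgeR adjusted p = 5.84e-04, 7.34e-04, 9.98e-05 and 0.00163). Prrx1, Eng, Pdgfrb, Pdgfra, Thy1 and Twist2 were not called, with log2 fold changes of -0.14, -0.12, -0.05, -0.04, 0.11 and 0.32. These are bulk samples, in which fewer cells of a type and less RNA per cell cannot be told apart. CKO replicate 1 differed from CKO replicates 2 and 3 in several Wnt genes. It was the highest CKO library for 7 of 9 osteoblast markers but not for Ibsp and Spp1. Over all genes it was not the most distant CKO library. The root-mean-square log2 distance from the mean of the others in the group was 0.325, 0.319 and 0.346 for CKO replicates 1 to 3. Rras2FF replicate 1 stood apart in the interferon-induced gene Ifit3, with 238 CPM against 38.8 and 17.8 CPM in Rras2FF replicates 2 and 3. Because CKO replicate 1 changes several calls, results that move with it are given with and without it. It was picked out from these same values, and p-values without it do not allow for that choice.

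Among the 53 genes, 3 rose in CKO (Sfrp4, Wnt11 and Sfrp2) and 6 fell (Cthrc1, Frzb, Fzd8, Ccn4, Fzd5 and Kremen1) at an edgeR adjusted p below 0.05. These 9 genes are 16.98% of the set, where 4.84% of all genes in the table were called. By direction, 2.10% of all genes were called higher and 2.74% lower. The groups did not overlap for 26 of the 53 genes, 11 higher and 15 lower in CKO, a share of 49.1% where it was 22.5% of all genes. The unadjusted edgeR p was below 0.05 for 45.3% of the 53 genes and for 17.3% of all genes. The median log2 fold change of the 53 genes was -0.04, with 21 above and 32 below 0, and that of all genes was 0.00058. All 9 called genes encode secreted or cell surface proteins, as most genes of the set do. Among the 10 secreted and surface inhibitors measured, 2 rose and 2 fell. Of the 6 cytoplasmic relay genes and the 3 nuclear factors 0 were called. With 4.84% of all genes called, 0 calls in classes this small does not set them apart.

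**Figure D1:**
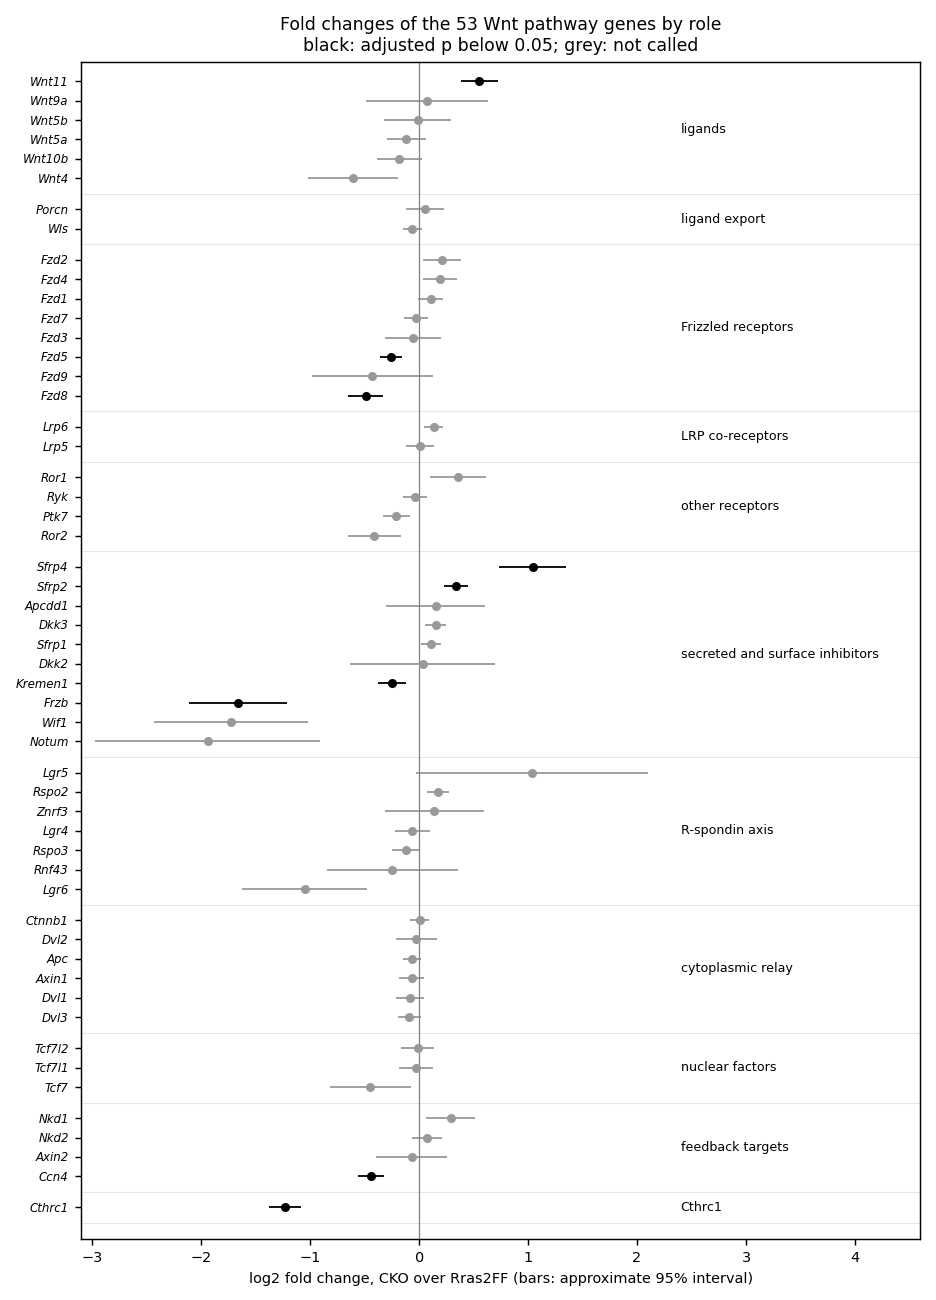
Log2 fold change of CKO over Rras2FF (x axis) for each of the 53 genes, grouped by role, with bars for an approximate 95% interval (normal quantile times the standard error). Black points passed the edgeR test and grey points did not. The inhibitors span from -1.94 for Notum to 1.04 for Sfrp4, while the 6 relay genes lie between -0.09 and 0.01.

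The largest difference between the groups, on the log2 scale, was in Notum, and the next in Wif1, both secreted inhibitors and both short of the edgeR threshold. Notum is an extracellular enzyme that removes the lipid from Wnt proteins and thereby inactivates them, and its gene is also a target of the pathway. It had 4.903, 1.81 and 1.46 CPM in CKO replicates 1 to 3 and 12.1, 9.58 and 9.76 CPM in Rras2FF replicates 1 to 3. Every CKO library lay below every Rras2FF library, and CKO replicate 1 held more than the other CKO libraries. Notum averaged 2.73 ± 1.89 CPM in CKO and 10.5 ± 1.39 CPM in Rras2FF (SD, n = 3 each), a fitted log2 fold change of -1.94 ± 0.526 (SE), which is 3.84-fold lower (edgeR adjusted p = 0.168). Without CKO replicate 1 the log2 fold change was -2.68 and the edgeR adjusted p was 2.56e-07. With any other library left out Notum was not called (edgeR adjusted p from 0.300 to 0.377). With all 6 libraries the adjusted p was 0.00855 by DESeq2, 0.0131 by limma-voom and 0.0379 by edgeR without robust estimation.

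Wif1, Wnt inhibitory factor, binds Wnt proteins outside the cell and keeps them from their receptors. Its level was 32.2, 16.2 and 15.2 CPM in CKO and 76.9, 64.8 and 68.8 CPM in Rras2FF, again in replicate order. The groups were far apart, with CKO replicate 1 the nearest of the CKO libraries to the Rras2FF range. Mean levels were 21.2 ± 9.55 CPM in CKO and 70.2 ± 6.14 CPM in Rras2FF (SD, n = 3 each), 3.31-fold lower in CKO, or -1.73 ± 0.36 (SE) on the log2 scale, and edgeR gave an adjusted p of 0.108. Without CKO replicate 1 the log2 fold change was -2.16 (edgeR adjusted p = 9.07e-10). With any other library left out Wif1 was not called (edgeR adjusted p from 0.238 to 0.293). With all libraries DESeq2 gave an adjusted p of 8.58e-05, limma-voom 0.00476 and edgeR without robust estimation 0.0119. Using the replicate number as a block, edgeR gave 0.142.

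Frzb, also named secreted Frizzled-related protein 3, binds Wnt proteins through a Frizzled-like domain. It was scarce, with 40, 44 and 33 counts in CKO against 108, 147 and 113 counts in Rras2FF. All CKO libraries were well below all Rras2FF libraries, and CKO replicate 1 lay within the range of the other CKO libraries. Frzb fell to 1.11 ± 0.182 CPM in CKO, against 3.51 ± 0.378 CPM in Rras2FF (SD, n = 3 each), 3.17-fold lower with a log2 fold change of -1.67 ± 0.2299 (SE; edgeR adjusted p = 6.88e-04).

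Sfrp4 and Sfrp2 rose, while Sfrp1 was not called. Sfrp4 had 36.3, 48.5 and 49.9 CPM in CKO and 25.1, 19.4 and 21.04 CPM in Rras2FF. The lowest CKO library, replicate 1, still exceeded the highest Rras2FF library. Sfrp4 rose to 44.9 ± 7.47 CPM in CKO, against 21.8 ± 2.96 CPM in Rras2FF (SD, n = 3 each), 2.06-fold higher with a log2 fold change of 1.04 ± 0.156 (SE; edgeR adjusted p = 0.0197). The call was lost when CKO replicate 2, Rras2FF replicate 2 or Rras2FF replicate 3 was left out (edgeR adjusted p = 0.0671, 0.0612 and 0.0915). Leaving out CKO replicate 1 kept the call, at 1.17 on the log2 scale (edgeR adjusted p = 1.50e-05).

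Sfrp2 was among the most abundant genes of the set and moved by less. It had 232, 212 and 222 CPM in CKO and 186, 161 and 181 CPM in Rras2FF, and the groups did not overlap. Sfrp2 rose 1.26-fold, with a log2 fold change of 0.34 ± 0.0555 (SE; edgeR adjusted p = 0.00283). Sfrp1, the most abundant of the family by count, had 452, 496 and 498 CPM in CKO and 451, 441 and 445 CPM in Rras2FF. CKO replicate 1 barely exceeded the highest Rras2FF library, and the test was not passed (log2 fold change 0.11, edgeR adjusted p = 0.221). Without that library the log2 fold change of Sfrp1 was 0.16 (edgeR adjusted p = 0.0175). Dkk3, a divergent Dickkopf protein, likewise had 311, 339 and 344 CPM in CKO and 306, 286 and 304 CPM in Rras2FF (log2 fold change 0.15; edgeR adjusted p = 0.108). Leaving out CKO replicate 1 gave Dkk3 a log2 fold change of 0.19 and a call (edgeR adjusted p = 0.00768).

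On the FPKM scale, which divides counts by gene length, Sfrp1, Sfrp2, Sfrp4 and Frzb together summed to 218, 223 and 226 FPKM in CKO and to 188, 179 and 188 FPKM in Rras2FF. The sum averaged 223 ± 3.79 FPKM in CKO and 185 ± 5.499 FPKM in Rras2FF (SD, n = 3 each), and it was not tested. Frzb made up little of it, with 0.315 FPKM in CKO and 1.02 FPKM in Rras2FF on average. Sfrp4 averaged 21.4 FPKM in CKO and 10.3 FPKM in Rras2FF, and Sfrp2 101 FPKM in CKO and 80.4 FPKM in Rras2FF.

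Kremen1, a surface receptor for Dickkopf proteins that helps remove Lrp6 from the membrane, fell slightly. It had 84.3, 80.9 and 69.5 CPM in CKO and 93.8, 90.7 and 94.6 CPM in Rras2FF, without overlap. The change was 1.19-fold lower (log2 fold change -0.25 ± 0.0645 SE; edgeR adjusted p = 0.0418). It did not pass in limma-voom (adjusted p = 0.0989), in edgeR without robust estimation (adjusted p = 0.111), or with edgeR when any library other than CKO replicate 1 was left out (adjusted p from 0.102 to 0.164). Dkk2 and Apcdd1, the remaining inhibitors, were not called by edgeR, with log2 fold changes of 0.03 and 0.15. Apcdd1 had 20.6 CPM in CKO replicate 2 and between 11.9 and 13.9 CPM in the other 5 libraries.

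**Figure D2:**
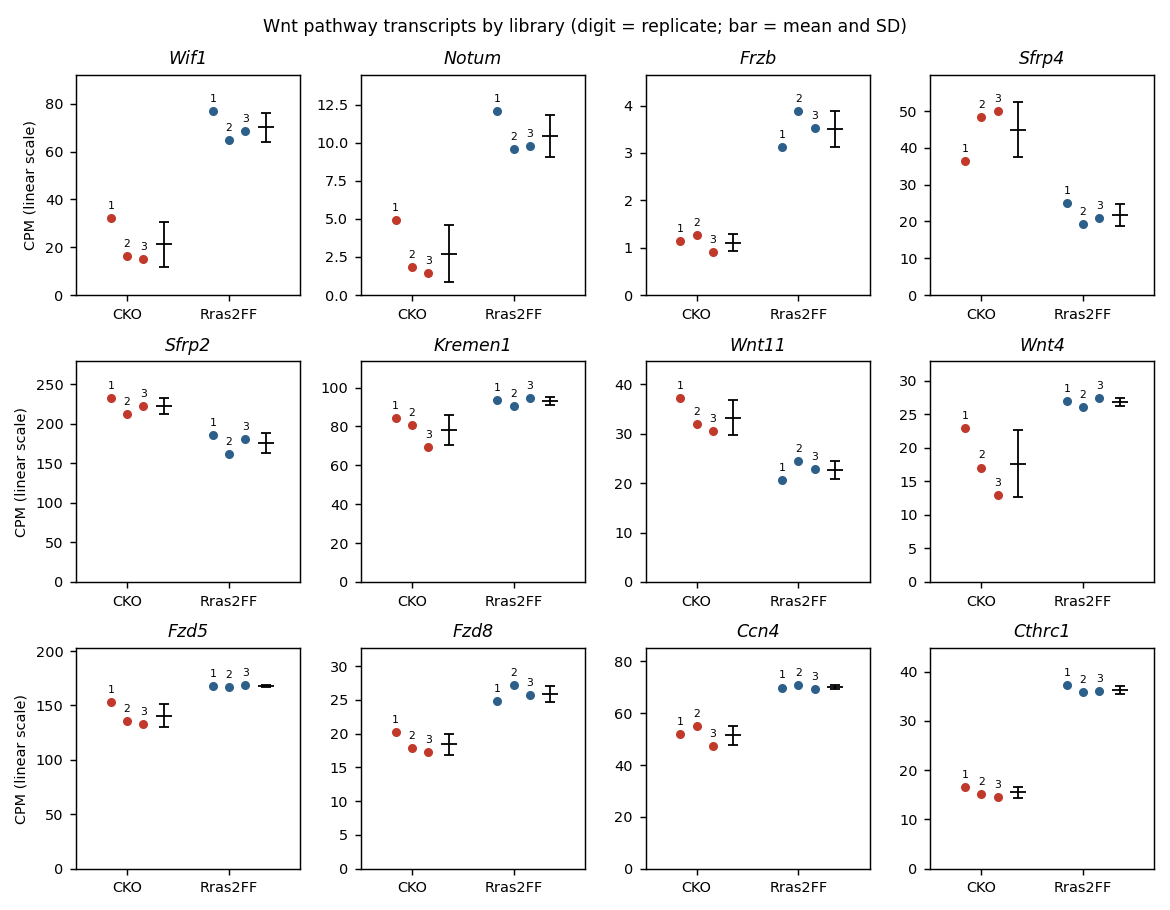
CPM in each library (y axis, from 0) for 12 genes, 3 CKO libraries at the left and 3 Rras2FF libraries at the right of each panel. Wif1, Notum, Frzb, Cthrc1 and Ccn4 sit lower in CKO and Sfrp4, Sfrp2 and Wnt11 higher. CKO replicate 1 lies above the other CKO libraries for Wif1, Notum, Wnt4, Kremen1, Fzd5, Fzd8, Cthrc1, Sfrp2 and Wnt11.

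CKO replicate 1 was the CKO library nearest to the Rras2FF mean for several genes of the set and for most osteoblast markers. Among the called genes this held for Cthrc1, Fzd5, Fzd8, Kremen1 and Sfrp4, but not for Ccn4, Frzb, Sfrp2 and Wnt11. Relative to the mean of CKO replicates 2 and 3, on the log2 scale, replicate 1 was higher by 1.59 for Notum, 1.04 for Wif1 and 0.63 for Wnt4. It differed by -1.71 for Lgr5. For Rnf43 and Fzd9, by contrast, it was the CKO library farthest from the Rras2FF mean, at -0.70 and -0.60 from the other CKO libraries. Of 9 osteoblast markers, 2 fell in CKO (Phospho1 and Runx2) and 0 rose. Their summed level was 3847, 3713 and 3479 CPM in CKO replicates 1 to 3 and lay between 4319 and 4624 CPM in Rras2FF. Sp7, an osteoblast transcription factor, had 168, 130.2 and 108 CPM in CKO and 218, 224 and 218 CPM in Rras2FF. Bglap, which encodes osteocalcin, had 2.57, 1.38 and 0.578 CPM in CKO and 5.32, 5.25 and 6.02 CPM in Rras2FF. Neither Sp7 nor Bglap passed the edgeR test (adjusted p = 0.158 and 0.116). Alpl, Ibsp, Dmp1 and Phex were also uncalled, with log2 fold changes of -0.66, -0.43, -0.57 and -0.10. Spp1 went the other way, at 0.17, and was not called. The part of the osteoblast markers in the differences of Wif1, Notum and the other Wnt genes was not tested.

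Markers of other cell types moved in places. The 3 measured lymphocyte and plasma cell markers of 7 listed summed to between 120.5 and 126 CPM in CKO and between 67.2 and 74.6 CPM in Rras2FF, and Igkc and Jchain rose. Of 8 macrophage markers 2 rose (Tyrobp and Mrc1) and 1 fell (Cd14). Of 6 adipocyte markers 1 rose (Adipoq), and their sum was between 3054 and 3141 CPM in CKO and between 2784 and 2914 CPM in Rras2FF. Lpl, which was not called, made up most of that sum, averaging 2718 CPM in CKO and 2500 CPM in Rras2FF. The 3 of 5 chondrocyte markers measured summed to between 264 and 301 CPM in CKO and between 313 and 384 CPM in Rras2FF, and 0 were called. For 4 of 5 neutrophil markers and 5 of 6 endothelial markers measured, 0 were called and the sums overlapped between groups. The 4 erythroid markers were not analysed here. The part of these cells in the Wnt results was not tested.

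**Figure D3:**
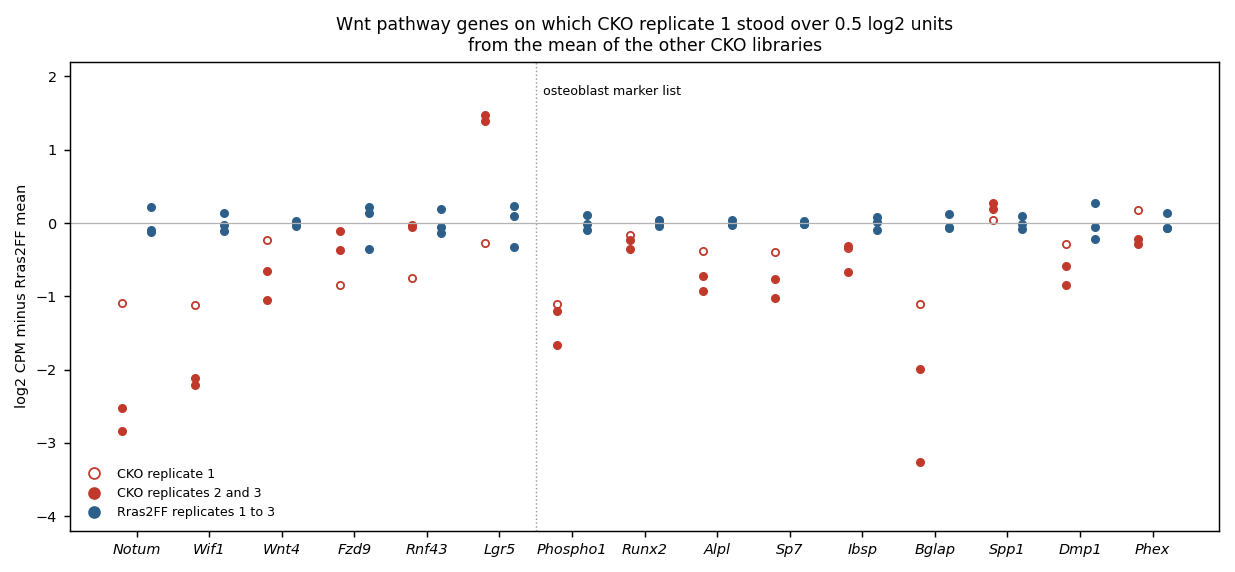
Difference of each library from the Rras2FF mean on the log2 CPM scale (y axis), CKO left and Rras2FF right, for 6 genes of the set and the 9 osteoblast markers. Open symbols are CKO replicate 1, which lies nearer to 0 than the other CKO libraries for Notum, Wif1, Wnt4, Lgr5, Alpl, Sp7 and Bglap and farther from 0 for Fzd9 and Rnf43.

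Of the ligands, 6 of 19 listed were measured and 1 rose. Wnt11, a ligand best known from signalling that does not need β-catenin, had 37.2, 31.9 and 30.6 CPM in CKO and 20.7, 24.4 and 22.9 CPM in Rras2FF. Every CKO library was above every Rras2FF library, and here replicate 1 was the CKO library farthest from them. Wnt11 rose to 33.2 ± 3.52 CPM in CKO, against 22.7 ± 1.87 CPM in Rras2FF (SD, n = 3 each), 1.46-fold higher with a log2 fold change of 0.55 ± 0.0867 (SE; edgeR adjusted p = 0.001905). Per length it was the most abundant of the 6 ligands, at 18.9 FPKM in CKO and 12.3 FPKM in Rras2FF.

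Wnt4 had 22.9, 17.1 and 12.9 CPM in CKO and 26.9, 26.1 and 27.4 CPM in Rras2FF, and the groups did not overlap. The CKO libraries spread widely and the test was not passed (log2 fold change -0.61 ± 0.212 SE; edgeR adjusted p = 0.231). Without CKO replicate 1 its log2 fold change was -0.84 (edgeR adjusted p = 1.80e-04). The other ligands were Wnt10b, which favours osteoblasts over adipocytes in mouse marrow, Wnt5a, Wnt5b and Wnt9a. Their log2 fold changes lay between -0.18 and 0.07, with overlapping groups and edgeR adjusted p-values from 0.414 to 0.981. Summed over the 6 ligands, the level was 35.5, 32.6 and 29.6 FPKM in CKO and 25.8, 31.6 and 28.9 FPKM in Rras2FF, and these ranges overlapped. The 2 genes of ligand export, Porcn, which attaches the lipid, and Wls, which carries ligands to the surface, had log2 fold changes of 0.05 and -0.06 (edgeR adjusted p = 0.826 and 0.524).

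Start regions of Wnt11, Sfrp2 and Wif1 are shown because these genes differed in opposite directions between the groups. The sequences are from RefSeq on GRCm38.p6, the plus strand, 5′ to 3′, and end before the transcription start, for Wif1 at 45 bases before it. A RefSeq window of up to 250 bases before the start was at hand for 32 of the 53 genes, in 39 windows. Each was searched on both strands for the TCF/LEF word CTTTGAA, with its variants spelled as CTTTGAT, further as CTTTGTA and last as CTTTGTT, and for the RUNX word TGTGGT, with its variant spelled as TGCGGT. Capitals mark the matches. In the first Wnt11 window ATCAAAG is CTTTGAT on the opposite strand, beginning 51 bases before the start. The second Wnt11 window, before a start farther into the gene, holds TGCGGT at 182 and 126 bases before that start. The windows shown are chr7:98834862-98835111 and chr7:98838595-98838844 for Wnt11, chr3:83766071-83766320 for Sfrp2 and chr10:121033754-121033959 for Wif1.
Wnt11, first start: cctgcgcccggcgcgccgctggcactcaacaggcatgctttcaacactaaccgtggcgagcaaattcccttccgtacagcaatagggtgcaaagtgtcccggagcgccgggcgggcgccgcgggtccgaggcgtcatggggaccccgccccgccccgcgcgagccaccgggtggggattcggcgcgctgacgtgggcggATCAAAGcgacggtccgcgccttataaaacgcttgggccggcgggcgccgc
Wnt11, second start: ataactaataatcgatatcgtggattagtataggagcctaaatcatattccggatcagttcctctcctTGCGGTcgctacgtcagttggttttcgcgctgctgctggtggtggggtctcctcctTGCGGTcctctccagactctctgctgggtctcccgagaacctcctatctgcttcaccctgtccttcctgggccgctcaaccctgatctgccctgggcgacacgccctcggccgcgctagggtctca
Sfrp2: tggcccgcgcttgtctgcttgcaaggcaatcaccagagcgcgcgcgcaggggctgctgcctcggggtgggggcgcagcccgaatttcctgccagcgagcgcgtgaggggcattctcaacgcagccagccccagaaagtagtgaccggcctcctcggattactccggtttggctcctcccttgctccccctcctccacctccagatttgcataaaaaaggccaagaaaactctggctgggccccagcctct
Wif1: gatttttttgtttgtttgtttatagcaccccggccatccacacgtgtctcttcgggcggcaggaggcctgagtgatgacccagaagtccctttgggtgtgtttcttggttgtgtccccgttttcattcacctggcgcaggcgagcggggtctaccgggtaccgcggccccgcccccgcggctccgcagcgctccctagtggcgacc
No TCF/LEF or RUNX word was found in the Sfrp2 and Wif1 windows. A TCF/LEF word was in 4 of the 39 windows, those of Wnt11, Wnt5b, Fzd7 and Tcf7l2, and in 14.8% of all 32851 RefSeq windows. The 32851 windows were not limited to the genes counted here. A RUNX word was in 4 windows, those of Wnt11, Wnt10b, Ror1 and Nkd2, and in 18.6% of all windows. A match describes letters in the sequence only.

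Of the Frizzled receptors, 8 of 10 listed were measured, 2 fell and 0 rose. Fzd8 had 20.2, 17.9 and 17.3 CPM in CKO and 24.8, 27.2 and 25.7 CPM in Rras2FF, with all CKO libraries below all Rras2FF libraries. It fell 1.405-fold (log2 fold change -0.49 ± 0.0818 SE; edgeR adjusted p = 0.00277). Fzd5 had 153, 136 and 133 CPM in CKO and 168, 167 and 169 CPM in Rras2FF. The Rras2FF libraries were close together, and all CKO libraries were lower. It fell 1.19-fold (log2 fold change -0.26 ± 0.052 SE; edgeR adjusted p = 0.0102), a call lost without CKO replicate 2 or 3 or Rras2FF replicate 2 or 3 (edgeR adjusted p from 0.0523 to 0.0668).

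The remaining Frizzled genes were not called. Fzd7, the second most abundant Frizzled by count, had 49.8, 52.3 and 52.05 CPM in CKO and 52.1, 52.9 and 52.1 CPM in Rras2FF (edgeR adjusted p = 0.856). Fzd1 and Fzd4 were higher in all CKO than in all Rras2FF libraries, with log2 fold changes of 0.11 and 0.19 (edgeR adjusted p = 0.402 and 0.232). Fzd2, Fzd3 and Fzd9 overlapped between groups, with log2 fold changes of 0.21, -0.06 and -0.43. Fzd2 passed without CKO replicate 1, at 0.28 on the log2 scale (edgeR adjusted p = 0.0494, and 0.235 with all libraries). Over the 8 receptors the summed level was 52.4, 51.9 and 50.1 FPKM in CKO and 53.9, 56.2 and 55.7 FPKM in Rras2FF. These ranges did not overlap, and the sum was not tested. The sum averaged 51.5 FPKM in CKO and 55.3 FPKM in Rras2FF. Fzd5 alone averaged 18.6 FPKM in CKO and 22.4 FPKM in Rras2FF, so the difference of the sum was about that of Fzd5.

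Among the co-receptors, Lrp5 averaged 80.9 ± 8.65 CPM in CKO and 80.6 ± 0.111 CPM in Rras2FF (SD, n = 3 each; edgeR adjusted p = 0.984). Lrp5 in CKO replicates 1 to 3 was at 90.3, 79.1 and 73.3 CPM, on both sides of the Rras2FF libraries. Lrp6 had 194, 205 and 201 CPM in CKO and 175, 189 and 183 CPM in Rras2FF, higher in each CKO library but short of the threshold (log2 fold change 0.13; edgeR adjusted p = 0.125). Without CKO replicate 1 Lrp6 passed, at 0.15 on the log2 scale (edgeR adjusted p = 0.0374).

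Of the 4 other receptors 0 were called by edgeR. Ror2, a tyrosine kinase-like receptor for Wnt5a, had 10.8, 11.03 and 7.82 CPM in CKO and 13.3, 12.7 and 13.4 CPM in Rras2FF. Ptk7, a pseudokinase of planar cell polarity, had 93.1, 88.9 and 78.2 CPM in CKO and 98.1, 106 and 96.9 CPM in Rras2FF. Both were lower in every CKO library, with log2 fold changes of -0.41 and -0.21. Their edgeR adjusted p-values were 0.0859 and 0.08601, and DESeq2 gave 0.0486 and 0.0407. Without CKO replicate 1 both passed in edgeR, Ror2 at -0.48 (adjusted p = 0.0441) and Ptk7 at -0.26 (adjusted p = 0.0144) on the log2 scale. Ror1 was higher in every CKO library (log2 fold change 0.36; edgeR adjusted p = 0.165), and Ryk, the most abundant of the 4 per length at 31.1 FPKM in CKO and 32.3 FPKM in Rras2FF, overlapped between groups.

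R-spondins bind Lgr receptors and hold back Rnf43 and Znrf3, ubiquitin ligases that clear Frizzled from the surface. Of this axis 7 of 9 listed genes were measured and 0 were called. Rspo2 had 382, 423 and 441 CPM in CKO and 377, 363 and 365 CPM in Rras2FF. All CKO libraries were higher, replicate 1 only slightly (log2 fold change 0.17; edgeR adjusted p = 0.0767), and DESeq2 gave an adjusted p of 0.0279. Without replicate 1 Rspo2 passed in edgeR at 0.23 on the log2 scale (adjusted p = 0.00156). Rspo3 was lower in each CKO library, by -0.12 on the log2 scale (edgeR adjusted p = 0.378).

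Lgr5, a receptor of this axis and a stem cell marker in epithelia, had 5.96, 19.99 and 19.03 CPM in CKO and 5.76, 8.45 and 7.73 CPM in Rras2FF. CKO replicate 1 lay inside the Rras2FF range and the other CKO libraries above it. Its log2 fold change was 1.04 ± 0.545 (SE; edgeR adjusted p = 0.4498), and 1.41 without CKO replicate 1 (edgeR adjusted p = 2.20e-05). Lgr6 was the lowest of the set per length and had 0.684, 0.691 and 0.771 CPM in CKO and 1.45, 1.24 and 1.78 CPM in Rras2FF. The groups did not overlap, and the adjusted p was short of the threshold (log2 fold change -1.05 ± 0.293 SE; edgeR adjusted p = 0.0568). Lgr4, Rnf43 and Znrf3 overlapped between groups, with log2 fold changes of -0.06, -0.25 and 0.14.

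Of the 6 genes of the intracellular relay 0 were called, and their log2 fold changes lay between -0.09 and 0.01. Ctnnb1, which encodes β-catenin, had 607, 614 and 579.8 CPM in CKO and 583, 597 and 613 CPM in Rras2FF (log2 fold change 0.01 ± 0.0443 SE; edgeR adjusted p = 0.959). The approximate 95% interval of that log2 fold change ran from -0.08 to 0.09. It was the gene of the set with the highest level per length, at 152 FPKM in CKO and 153 FPKM in Rras2FF. Apc and Axin1, scaffolds of the complex that degrades β-catenin, both had log2 fold changes of -0.07, and the Dishevelled genes Dvl1, Dvl2 and Dvl3 had -0.08, -0.02 and -0.09. Apc and Dvl3 were slightly lower in every CKO library, and neither passed the edgeR test (adjusted p = 0.494 and 0.4498). Of the nuclear factors, Tcf7l1 and Tcf7l2 had log2 fold changes of -0.03 and -0.01. Tcf7 had 8.86, 11.4 and 10.5 CPM in CKO and 15.8, 10.03 and 16.1 CPM in Rras2FF, where Rras2FF replicate 2 lay inside the CKO range (edgeR adjusted p = 0.269, and 0.0167 without that library). These values are transcript levels and hold no measure of β-catenin protein.

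The 4 genes classed here as feedback targets did not move together. Notum, Tcf7, Rnf43, Znrf3 and Apcdd1, also targets of the pathway, are counted in other classes. Their log2 fold changes were -1.94, -0.45, -0.25, 0.14 and 0.15, and none was called by edgeR. Ccn4, also called Wisp1, a matricellular protein gene that responds to Wnt, had 52.05, 54.9 and 47.3 CPM in CKO and 69.9, 70.9 and 69.3 CPM in Rras2FF. The groups were well apart and each was tight. Ccn4 fell to 51.4 ± 3.84 CPM in CKO, against 70.05 ± 0.819 CPM in Rras2FF (SD, n = 3 each), 1.36-fold lower with a log2 fold change of -0.45 ± 0.0611 (SE; edgeR adjusted p = 6.56e-04). Axin2, a widely used target of the β-catenin branch, had 6.898, 5.301 and 5.37 CPM in CKO and 6.19, 5.07 and 7.1996 CPM in Rras2FF. Its groups overlapped, and the log2 fold change was -0.07 with an approximate 95% interval from -0.39 to 0.25 (edgeR adjusted p = 0.881). The Dishevelled antagonist Nkd1 had 9.69, 11.6 and 10.1 CPM in CKO and 8.797, 7.92 and 8.94 CPM in Rras2FF, higher in each CKO library and not called (log2 fold change 0.29; edgeR adjusted p = 0.193). Nkd2 overlapped between groups (log2 fold change 0.07; edgeR adjusted p = 0.6601).

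Cthrc1, a secreted collagen triple helix protein described in mouse as a partner of Wnt and Frizzled proteins in the planar polarity branch, had the smallest p of the set. It had 16.6, 15.2 and 14.7 CPM in CKO and 37.3, 35.8 and 35.97 CPM in Rras2FF. The libraries of each group were close to each other and the groups far apart. Cthrc1 fell to 15.5 ± 1.04 CPM in CKO, against 36.3 ± 0.815 CPM in Rras2FF (SD, n = 3 each), 2.35-fold lower with a log2 fold change of -1.23 ± 0.0735 (SE; edgeR adjusted p = 4.86e-07).

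The called genes lie on mm10, by GENCODE M21, as follows. Cthrc1 (ENSMUSG00000054196) spans chr15:39076932-39087121 on the plus strand, and Ccn4 (ENSMUSG00000005124) chr15:66891320-66923201 on the plus strand of the same chromosome. Frzb (ENSMUSG00000027004) spans chr2:80411970-80447625, minus strand, and Fzd8 (ENSMUSG00000036904) chr18:9212163-9218136, plus strand. Fzd5 (ENSMUSG00000045005) spans chr1:64730558-64737751 and Kremen1 (ENSMUSG00000020393) chr11:5191552-5261558, both on the minus strand. Sfrp4 (ENSMUSG00000021319) spans chr13:19623104-19632994, Sfrp2 (ENSMUSG00000027996) chr3:83766321-83774316 and Wnt11 (ENSMUSG00000015957) chr7:98835112-98855195, all on the plus strand. Of the uncalled inhibitors, Wif1 (ENSMUSG00000020218) spans chr10:121033960-121100650, plus strand, and Notum (ENSMUSG00000042988) chr11:120653788-120661175, minus strand. Genes on the opposite strand overlap Notum (Notumos and Myadml2os), Sfrp2 (Gm26771), Wnt11 (Gm8398), Fzd5 (Gm38058), Kremen1 (Gm25142), Ptk7 (Gm26904) and Lgr5 (A930009A15Rik), among others. The strand setting of the counting is not given in the sources used here, so if strand was not used, reads of these pairs cannot be told apart.

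**Figure D4:**
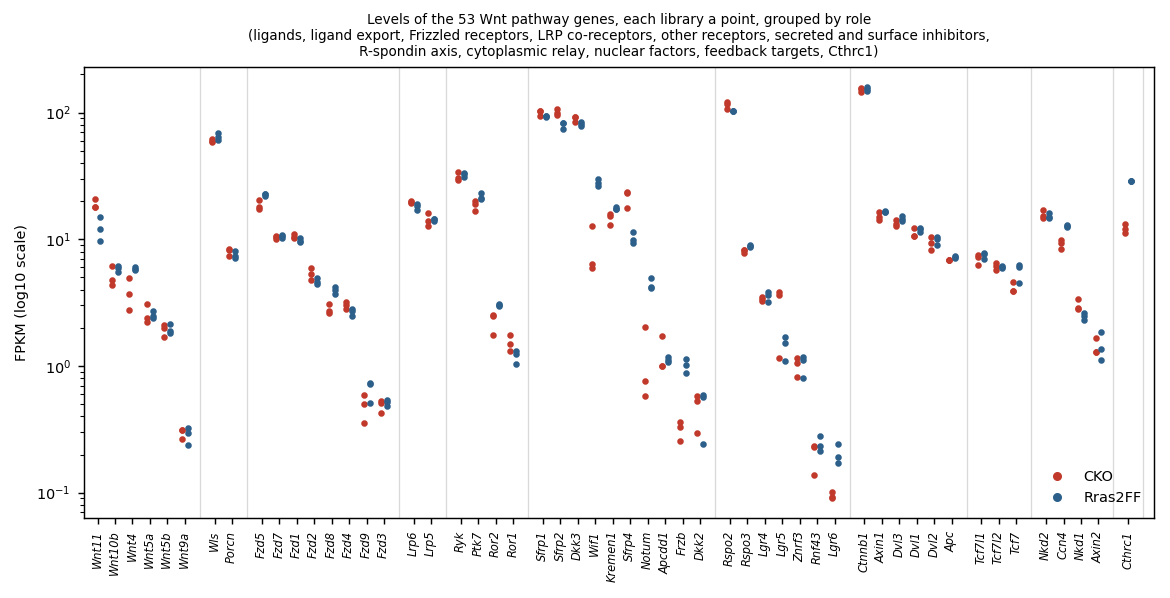
FPKM of each gene in each library (log10 axis), grouped by role, 1 point a library. Ctnnb1, Rspo2, Sfrp1, Sfrp2 and Dkk3 lie highest, with means over the 6 libraries from 152 to 85.4 FPKM, and Lgr6 lowest at 0.149 FPKM.

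By level per length, the inhibitors Sfrp1, Sfrp2 and Dkk3 stood above all 6 ligands, while Dkk2, Frzb, Apcdd1 and Notum lay below Wnt4, Wnt10b and Wnt11. By the mean over all 6 libraries Wif1, Kremen1 and Sfrp4 were also above Wnt11, at 18.2, 16.1 and 15.9 FPKM, but none of them in both groups. In CKO Wif1 and Kremen1 lay below Wnt11 (8.39 and 14.7 against 18.9 FPKM), and in Rras2FF Sfrp4 did (10.3 against 12.3 FPKM). After Ctnnb1, the highest means over all 6 libraries were 109 FPKM for Rspo2, 96.7 FPKM for Sfrp1, 90.5 FPKM for Sfrp2 and 85.4 FPKM for Dkk3. The 6 ligands lay between 0.292 FPKM for Wnt9a and 15.6 FPKM for Wnt11, and the 8 Frizzled genes between 0.5002 FPKM for Fzd3 and 20.5 FPKM for Fzd5.

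Other genes of the pathway were read from a list of 59 symbols that includes the current and an older symbol of the same gene. Of these, 52 were measured. By edgeR 0 were called, 6 had an unadjusted p below 0.05 (11.5%, against 17.3% of all genes), and 15 had a log2 fold change above 0 and 37 below. DESeq2 called 2 of them, Lrp4 and Gja1, where it called 6.61% of all genes. Limma-voom called 1, Lrp4, where it called 3.38% of all genes. Lrp4, a receptor for the inhibitor sclerostin, had 205, 145 and 140 CPM in CKO and 266, 249 and 240 CPM in Rras2FF (log2 fold change -0.62; edgeR adjusted p = 0.191). CKO replicate 1 was again the CKO library nearest to Rras2FF. Gja1, which encodes the gap junction protein connexin 43, had 602, 734 and 710 CPM in CKO and 603, 541 and 573 CPM in Rras2FF, where CKO replicate 1 lay inside the Rras2FF range (edgeR adjusted p = 0.0995). Without CKO replicate 1 edgeR called 6 of the 52, Adgra2, Bcl9l, Gja1, Lrp4, Tle2 and Tnfrsf11b, where 9.09% of all genes were called.

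In the authors' deposited table, 14 of the 53 genes had an adjusted p below 0.05, 4 higher and 10 lower in CKO, where 6.61% of all genes did, by the authors' deposited table as by DESeq2 run here. These were the 9 genes called by edgeR with Notum, Wif1, Ptk7, Ror2 and Rspo2. With CKO replicate 1 left out edgeR called 20 of the 53, 9 higher and 11 lower, where 9.09% of all genes were called. Cthrc1, Frzb, Ccn4, Fzd8, Sfrp2 and Wnt11 were called under every alternative run, including each library left out.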

How the data were processed

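RNA was sequenced from 6 libraries, 3 CKO and 3 Rras2FF. Libraries were made with a stranded mRNA kit, per the labels' protocols, and the submitters' processing notes name the genome build mm10. For the aligner, the counter, how strand was used and the authors' statistical test, details were not given in the sources used here. Their deposited table gives raw gene counts, FPKM values per gene and library, a log2 fold change with p-values, and a mean log2(FPKM + 1), per the file headers. The lowest mean count of a listed gene is 22.3, so genes below that are not analysed here. Over genes and libraries the median was 1075 counts.

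The edgeR package, version 4.0.16 under R 4.3.3, tested the counts of all 12830 genes (TMM scaling, filterByExpr, quasi-likelihood F test with robust estimation, no covariates), with Benjamini-Hochberg adjustment over all genes and calls at an adjusted p below 0.05. The filter removed 0 genes. CPM values use TMM library sizes. FPKM served for levels between genes. The scripts were tested on simulated data. Groups are taken from the titles. Alternatives were DESeq2 1.42.0, limma-voom (limma 3.58.1), other scaling and filters, no robust estimation, a replicate block and each library left out.

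Named with values were called genes, those with an absolute log2 fold change of at least 0.5, the 2 most abundant by CPM in each role class, and those called only by an alternative test; others are named to account for every gene. The genes, lists and rule were chosen with earlier results of these data known. The osteoblast counts and sums cover 9 genes; 1 further gene of the planned list is in none of them and is not reported here. Coordinates are from GENCODE M21, which matched all 53 genes. Figures were drawn with matplotlib 3.10.9.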

Additional observations from a re-analysis of the deposited data

How the results depend on the processing

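The table is limited by 3 libraries a group. Of all genes, 270 were called higher and 351 lower. Limma-voom gave 177 higher, and edgeR without robust estimation 166 higher and 233 lower. With 1 library left out, 107 to 535 were higher and 161 to 631 lower. Of the 53 Wnt genes 3 were higher (2 to 9 with 1 library left out) and 6 lower (4 to 11, and 10 by DESeq2). Of the 52 other pathway genes 0 were called, but 2 by DESeq2, 1 by limma-voom, 1 without robust estimation and 0 to 6 with 1 library left out. The highest counts were those without CKO replicate 1, and the lowest of all genes those without Rras2FF replicate 2. The cause was not tested. Other scaling and filters called the same 9 Wnt genes.

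Over 31 named genes, 465 values came from alternatives: 418 kept direction and side of the threshold, 21 gained a call, 15 lost one and 11 changed sign. All sign changes were of uncalled genes near 0. With 1 library left out the log2 fold change ran from -0.013 to 0.031 for Ctnnb1, -0.082 to 0.071 for Lrp5, -0.0019 to 0.14 for Nkd2, -0.11 to 0.0016 for Ryk, -0.065 to 0.027 for Tcf7l1 and -0.07047 to 0.038 for Tcf7l2. With the replicate block Lrp5 was at -0.00089, and limma-voom put it at -0.0018.

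Same-numbered CKO and Rras2FF libraries deviated from their group means with correlations of -0.036, 0.091 and -0.0985. Not every library correlated best with its own number. With so few libraries these values cannot show whether same-numbered libraries were handled together. The fit with the number as a replicate block called 669 of 12830 genes (5.21%) and 10 Wnt genes, 2 higher and 8 lower, without Sfrp4 (adjusted p = 0.172, edgeR) and with Notum and Ptk7 added.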
